A study of Oryza sativa with 12 samples.

Results

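The transcripts described are the most abundant ones of post-meiotic rice anthers, by the paper's unit RPKM (reads scaled to gene length and library size). They are the genes with at least 800 RPKM in each of 4 group means. They were chosen by these measured means, so the levels below describe the set and test nothing. Out of 55985 gene models in the deposited table, 55 met this limit, and 53 were kept after 2 of them, OsC6 (LOC_Os11g37280) and OsMADS16 (LOC_Os06g49840), were set aside by name. The groups are ERY COLD, ERY CONTROL, S.AND COLD and S.AND CONTROL. ERY (Erythroceros Hokkaido) is labelled as tolerant of cold stress and S.AND (Sant'Andrea) as susceptible. COLD plants spent 1 night at 8 °C and CONTROL plants the same night at 24 °C, and anthers were dissected from spikelets when the chamber lights came on. The paper reports damaged anthers in a part of the cold-treated S.AND spikelets and kept only anthers of normal anatomy. The S.AND COLD values therefore describe undamaged anthers. Each group holds 3 samples of RNA from pooled anthers, 12 in all, and all plants had first been moved to short days to induce heading. The authors averaged the 3 samples of a group before deposit, so each RPKM given below is the authors' mean, with no spread between samples, and differences between groups are given as ratios of means with no test.

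An anther at this stage holds young microspores inside a nursing layer, the tapetum. The tapetum secretes lipid transfer proteins, the precursors of sporopollenin, which hardens the outer pollen wall, and other material that coats the microspores, and it later dies. Other transcripts that are abundant in growing plant cells generally encode housekeeping products such as ubiquitin, the small protein that marks other proteins for breakdown.

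The anther label was checked against 11 anther and tapetum genes, 10 of them from the study's list of 45 anther development genes and the other being OsMADS16, a gene of stamen identity. Among the 11, OsPKS1, OsC4 and OsRAFTIN1 are members, and OsC6 and OsMADS16 met the same limit of 800 RPKM. The high level of these genes is therefore part of how the set was chosen. Their means were at least 93.3 RPKM in ERY COLD and 115 RPKM in ERY CONTROL, and at least 169 RPKM in S.AND COLD and 299.8 RPKM in S.AND CONTROL. Over the whole list of 45 the levels ran much lower, with a median of 62.8 RPKM in ERY COLD and 74.2 in ERY CONTROL, and of 162 RPKM in S.AND COLD and 139 in S.AND CONTROL. None of the 45 was at 0, but 4 were below 1 RPKM in ERY COLD and 4 in ERY CONTROL, against 1 in S.AND COLD and 0 in S.AND CONTROL. OsPKS2 (LOC_Os07g22850), for example, had 0.76 RPKM in ERY COLD against 191 in S.AND COLD, and 0.65 RPKM in ERY CONTROL against 343 in S.AND CONTROL. DL (LOC_Os03g11600), a gene of pistil identity, stood at 14.1 RPKM in ERY COLD and 12.4 in ERY CONTROL, and at 2.59 RPKM in S.AND COLD and 5.62 in S.AND CONTROL. None of 10 chlorophyll A-B binding protein genes, markers of green tissue taken from the study's tables of cold-responsive genes, was among the 53, and their summed level was 433 RPKM in ERY COLD and 1111 in ERY CONTROL, against 202 RPKM in S.AND COLD and 875 in S.AND CONTROL. That these 10 genes differ between the night temperatures is part of how they were found. Genes of this kind that the study did not list as cold-responsive were not counted. The part of green tissue in the values below was not tested.

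What the 53 genes encode is known here for 8 of them, since the table gives identifiers alone, the reference table of gene names matched 0 of the 53, and the study's own tables describe 8. Of these, 4 belong to the study's list of 45 anther development genes. OsPKS1 (LOC_Os10g34360) is a polyketide synthase of sporopollenin synthesis. OsC4 (LOC_Os08g43290) is a lipid transfer protein. OsRAFTIN1 (LOC_Os08g38810) is a BURP domain protein of the tapetum that is needed for pollen development. RTS (LOC_Os01g70440) is a small protein of the tapetum that is needed for male fertility. The other 4 are OsUBQ (LOC_Os02g06640), a ubiquitin gene used by the study as a reference gene in qRT-PCR, an acyl-desaturase described as a chloroplast precursor (LOC_Os04g31070), of an enzyme class that puts double bonds into fatty acids, a triacylglycerol lipase precursor (LOC_Os06g42860), of a class that frees fatty acids from storage fat, and a protein with a heavy metal-associated domain (LOC_Os09g20000), which binds metal ions. The remaining 45 genes are given by identifier. The last 3 of these 8 carry a description because they stand in the study's tables of cold-responsive genes, so that they differ between the night temperatures is part of how they came to be described.

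The locus numbers carry the chromosome. The members fell on all 12 chromosomes, with 7 each on chromosomes 1, 3 and 9, 6 on chromosome 2 and 1 on chromosome 12. In the order of the identifiers, 7 members lay within 5 rows of another member. LOC_Os03g08010 and LOC_Os03g08020 were next to each other, with LOC_Os03g08050 after 2 other genes. LOC_Os01g41140 and LOC_Os01g41170 had 2 genes between them, and so had LOC_Os10g05720 and LOC_Os10g05750. Whether such neighbours are near-identical copies that share reads was not examined, because no sequences of these genes were used here, so the split of reads between them is uncertain.

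The 53 genes held 13.5% of all RPKM in ERY COLD and 14.7% in ERY CONTROL, and 13.3% in S.AND COLD and 13.8% in S.AND CONTROL. They are a small part of the genes with a mean above 0, which numbered 39986 in ERY COLD and 40287 in ERY CONTROL, and 38392 in S.AND COLD and 40692 in S.AND CONTROL. Each column sums to 1000000 RPKM to within 2 RPKM, which scaling by gene length and library size alone would not give. How the means came to this sum is not stated, so the unit is uncertain, and the paper's name RPKM is kept here. With a fixed sum, a lower value of one abundant gene raises the others slightly. In comparison, OsC6 alone held 2.03% in ERY COLD and 2.60% in ERY CONTROL, and 1.98% in S.AND COLD and 2.46% in S.AND CONTROL.

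**Figure D1:**
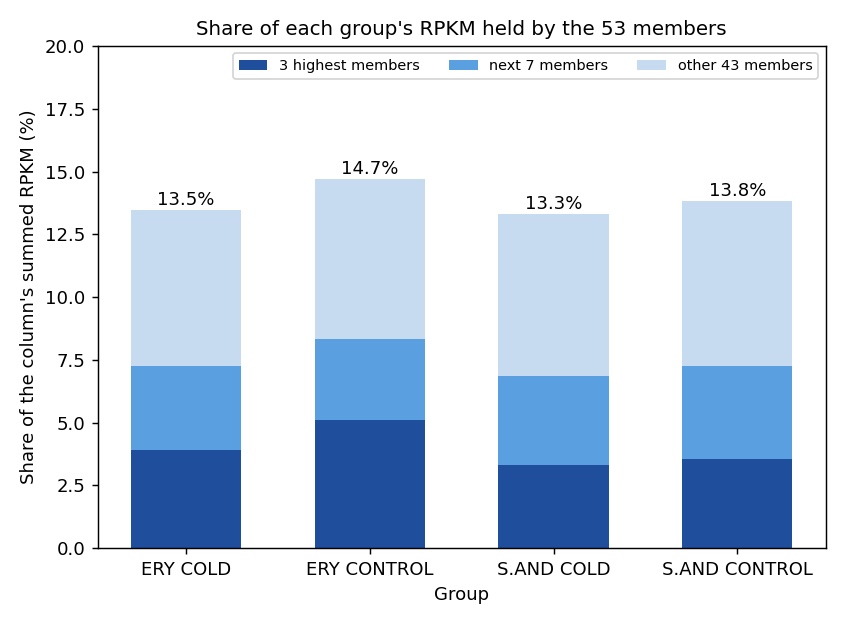
Share of the summed RPKM of each group (y axis, percent) held by the 53 members, stacked as the 3 highest, the next 7 and the other 43 members, for the 4 groups on the x axis. The total lies between 13.3% and 14.7%, and the segment of the 3 highest members varies most, from 3.31% in S.AND COLD to 5.09% in ERY CONTROL.

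The share was concentrated in a few genes. The 10 highest members held 7.25% of ERY COLD and 8.34% of ERY CONTROL, and 6.85% of S.AND COLD and 7.24% of S.AND CONTROL, while the other 43 together kept to between 6.22% and 6.57% in every group. The members' sum in ERY COLD minus that in ERY CONTROL was -12473 RPKM, and LOC_Os01g41140 alone gave -9930.3 RPKM of it. With this gene left out of both the members and the column sum, the share was 12.02% in ERY COLD and 12.4% in ERY CONTROL. In S.AND the same difference was -4879.7 RPKM, of which this gene gave -824 RPKM.

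LOC_Os01g41140 had the highest average of the members, with 16561 RPKM in ERY COLD and 26491 in ERY CONTROL. In S.AND it had 12508 RPKM in COLD and 13332 in CONTROL. In ERY CONTROL it ranked first of all genes of the table, ahead of OsC6, and in the S.AND groups it ranked 3. Its ratio of COLD to CONTROL was 0.63 in ERY and 0.94 in S.AND. The neighbouring LOC_Os01g41170 had 8481 RPKM in ERY COLD and 11201 in ERY CONTROL, and 7250 RPKM in S.AND COLD and 8585 in S.AND CONTROL. Both neighbours were therefore highest in ERY CONTROL, the first by a wider margin than the second.

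LOC_Os04g39150 was level over the groups, with 14213 RPKM in ERY COLD, 13180.4 in ERY CONTROL, 13325 in S.AND COLD and 13463 in S.AND CONTROL. Its highest mean was 1.08 times its lowest. LOC_Os07g37850 had 8705 RPKM in ERY COLD and 7456 in ERY CONTROL, and 6635 RPKM in S.AND COLD and 7084 in S.AND CONTROL. LOC_Os08g45150 had 6725 RPKM in ERY COLD and 5136 in ERY CONTROL, and 5973 RPKM in S.AND COLD and 5987 in S.AND CONTROL, and ranked 7 of all genes in every group. These genes kept nearly the same place in every group although their values differed by up to 1.31 times.

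LOC_Os10g05720 had 6995 RPKM in ERY COLD and 9456 in ERY CONTROL, and 9139 RPKM in S.AND COLD and 9171 in S.AND CONTROL. Its neighbour LOC_Os10g05750 had 4260 RPKM in ERY COLD and 4681 in ERY CONTROL, and 3538 RPKM in S.AND COLD and 2828 in S.AND CONTROL. The second of these was higher in ERY at both temperatures, whereas the first was lower in ERY in COLD and slightly higher there in CONTROL. LOC_Os09g30320 had 3281 RPKM in ERY COLD and 3141 in ERY CONTROL, and 2583 RPKM in S.AND COLD and 2813 in S.AND CONTROL. The 10 genes with the highest average of the 4 means are completed by OsPKS1 and OsC4, which reached this place through S.AND.

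**Figure D2:**
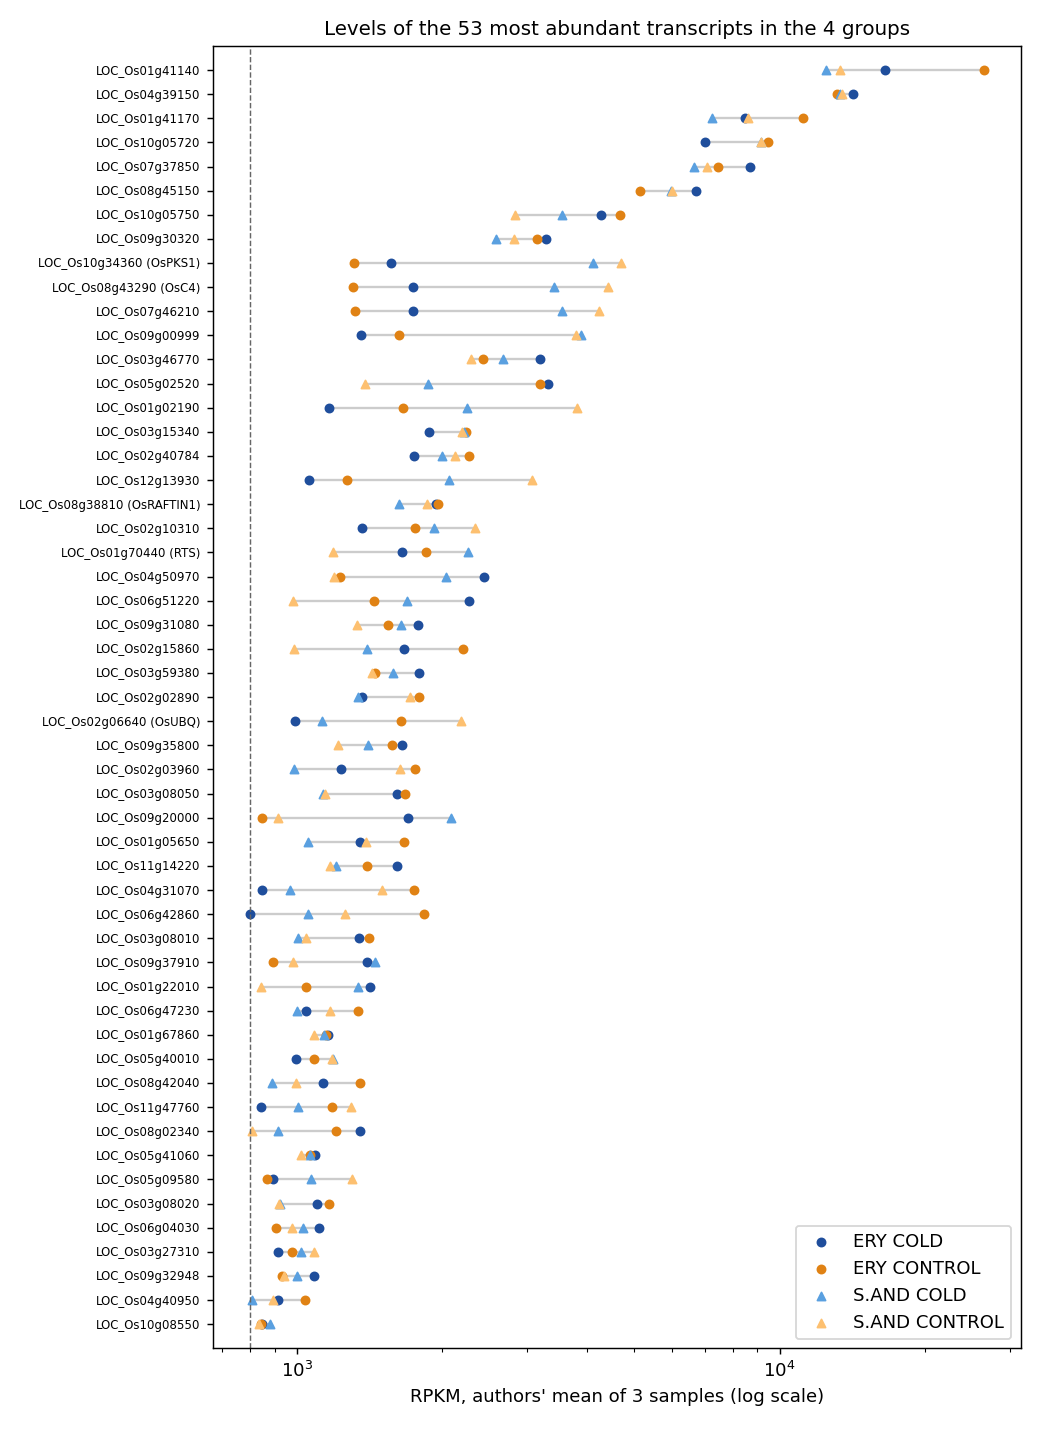
Levels of the 53 members (rows, ordered by the average of the 4 means) in RPKM on a log scale, each point being the authors' mean of 3 samples of a group and the dashed line the limit of 800 RPKM. OsPKS1, OsC4 and LOC_Os07g46210 show S.AND points well above the ERY points, whereas the 4 points of LOC_Os10g08550 and LOC_Os01g67860 nearly coincide.

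The median member had 1416 RPKM in ERY COLD and 1543 in ERY CONTROL, and 1455 RPKM in S.AND COLD and 1332 in S.AND CONTROL. At the lower end the limit of 800 RPKM decided membership. Just inside it were LOC_Os06g42860, with a lowest mean of 801 RPKM in ERY COLD, LOC_Os08g02340, with 808 in S.AND CONTROL, and LOC_Os04g40950, with 809 in S.AND COLD. Just outside were LOC_Os09g30412, with a lowest mean of 788 RPKM, LOC_Os09g01000, with 761, and LOC_Os08g41950, with 758. A member near the limit could not have had a much lower mean in any group without leaving the set, which holds down the ratios between groups below.

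Over all 4 groups, about as many members were level as were not. For 27 of the 53 the highest mean was under 1.5 times the lowest, against 36.6% of the 25497 genes with at least 1 RPKM in a group. The ratio of highest to lowest was 1.5 to 2 in 11 members and at least 2 in 15, with a median of 1.499. Among genes with an average of 200 to 800 RPKM, 47.6% were level in this sense, and among those of 50 to 200 RPKM 60.6%, so that the members' share of 50.9% lies between them. In the class of all 86 genes with an average of at least 800 RPKM, which is not held down by the lowest mean, it was 38.4%.

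The most level member was LOC_Os10g08550, with 846 RPKM in ERY COLD, 842 in ERY CONTROL, 882 in S.AND COLD and 837 in S.AND CONTROL. LOC_Os01g67860 had 1159 RPKM in ERY COLD, 1147 in ERY CONTROL, 1136 in S.AND COLD and 1084 in S.AND CONTROL. LOC_Os05g41060 had 1093 RPKM in ERY COLD, 1067 in ERY CONTROL, 1065 in S.AND COLD and 1021 in S.AND CONTROL. In these genes the 4 means differed by 1.05 to 1.07 times, and LOC_Os04g39150 and LOC_Os09g32948 followed with 1.08 and 1.16. Of the described members, OsRAFTIN1 was the most level, with 1947 RPKM in ERY COLD and 1957 in ERY CONTROL, and 1629.8 RPKM in S.AND COLD and 1861 in S.AND CONTROL.

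The first comparison asks what a cold night did to these transcripts within each cultivar. Past 1.5-fold either way were 8 of the 53 members in ERY, where 30.9% of all genes were, and 9 in S.AND, where 31.5% of all genes were. The other members were within 1.5-fold of their control level, and 41 were so in both cultivars. The share of all genes within 1.5-fold in both was not worked out. The genes that stood out were a metal-binding protein gene and a pair of undescribed genes that were higher in COLD in both cultivars, and OsUBQ and the acyl-desaturase gene, which were lower in both. The median log2FC (log2 of COLD over CONTROL) of the members came to -0.06 for ERY and -0.01 for S.AND, beside 0.03 and 0.00 over the 23936 and 24203 genes with at least 1 RPKM in a compared group. The middle of the members lay close to no difference, with quartiles of -0.36 and 0.22 for ERY and of -0.24 and 0.15 in S.AND.

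In ERY, 4 members were at least 1.5-fold higher in COLD, where the background over all genes was 16.4%, and 4 were at least 1.5-fold lower, where the background was 14.5%. In S.AND, 5 members were at least 1.5-fold higher (background 12.8%) and 4 at least 1.5-fold lower (background 18.7%). At least 2-fold higher was 1 member in ERY (background 8.19%) and 1 in S.AND (5.42%), and at least 2-fold lower were 2 in ERY (6.66%) and 0 in S.AND (9.22%). At the limit of 25% higher or 20% lower, 9 members were higher in ERY COLD (background 27.6%) and 14 lower (24.4%), and 9 were higher in S.AND COLD (24.8%) and 9 lower (29.4%). Many genes of that background have low values, whose ratios scatter widely. By abundance, 15.1% of the members were past 1.5-fold either way in ERY and 17.0% in S.AND, beside 17.3% (ERY) and 22.0% (S.AND) among genes with an average of 200 to 800 RPKM. In the class of at least 800 RPKM by average it was 16.3% in ERY and 24.4% in S.AND. Among genes with an average of 50 to 200 RPKM it was 15.9% in ERY and 17.9% in S.AND, close to the members.

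**Figure D3:**
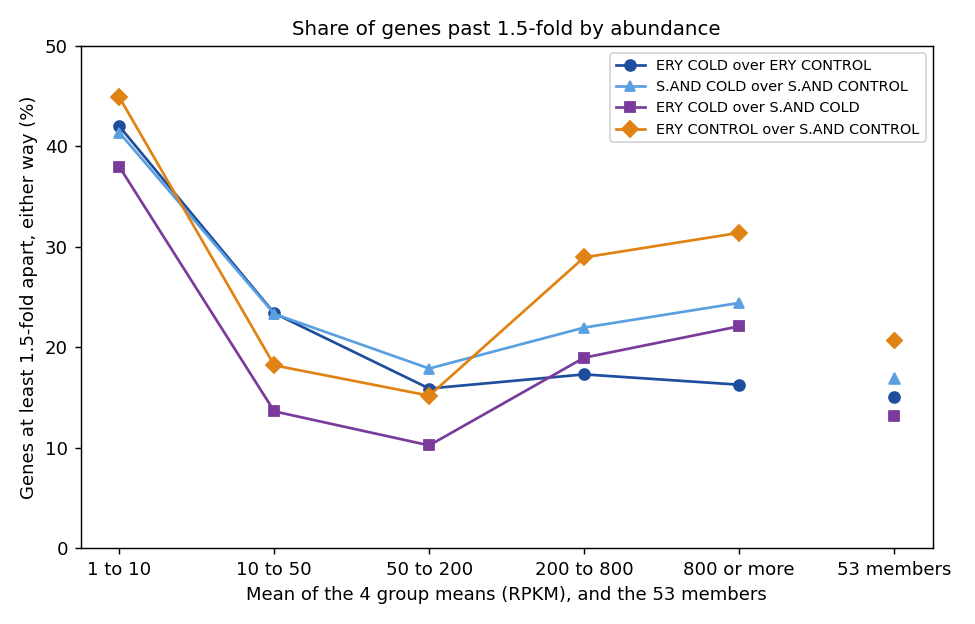
Percentage of genes at least 1.5-fold apart either way (y axis) in 4 comparisons of group means, for classes of the average of the 4 means in RPKM (x axis, lines) and for the 53 members (separate points at the right). The members lie between 13.2% and 20.8%, well under the 38.0% to 44.9% of genes with an average of 1 to 10 RPKM. Genes with an average of 50 to 200 RPKM lie between 10.2% and 17.9%, so the members are not steadier than these.

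Genes higher in COLD came first from the metal-binding gene. LOC_Os09g20000 had 1696 RPKM in ERY COLD against 846 in ERY CONTROL, and 2082 RPKM in S.AND COLD against 914 in S.AND CONTROL. The ratio of COLD to CONTROL was 2.003 in ERY and 2.28 in S.AND, the highest of the members in both cultivars. LOC_Os04g50970 had 2445 RPKM in ERY COLD against 1229 in ERY CONTROL, and 2035 RPKM in S.AND COLD against 1194 in S.AND CONTROL. LOC_Os06g51220 had 2271 RPKM in ERY COLD against 1446 in ERY CONTROL, and 1693 RPKM in S.AND COLD against 980.4 in S.AND CONTROL. For all 3 genes both COLD means lay above both CONTROL means.

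LOC_Os09g37910 was also higher in COLD, past 1.5-fold in ERY but not in S.AND, with 1400.3 RPKM in ERY COLD against 891 in ERY CONTROL, and 1455 RPKM in S.AND COLD against 981 in S.AND CONTROL. LOC_Os01g22010 had 1416 RPKM in ERY COLD against 1045 in ERY CONTROL, and 1338 RPKM in S.AND COLD against 844 in S.AND CONTROL. OsC4 was not of this kind. It had a log2FC of 0.41 in ERY COLD over ERY CONTROL and of -0.37 in S.AND, where its COLD mean was the lower one. In all, 17 members were higher in COLD in both cultivars by any amount and 21 were lower in both, while 15 had opposite signs. The same shares over all genes were not worked out, so these counts do not show whether the members stand apart.

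Among genes lower in COLD was OsUBQ, with 992 RPKM in ERY COLD against 1643 in ERY CONTROL, and 1128 RPKM in S.AND COLD against 2191 in S.AND CONTROL. The ratio of COLD to CONTROL was 0.60 in ERY and 0.51 in S.AND, the lowest of the members in S.AND. The study's qRT-PCR used this gene as a reference together with a further gene, NABP, whose level was not looked at here. The primer pair that read OsUBQ is shown, 5′ to 3′, as the study gives it.
OsUBQ forward: gagcctctgttcgtcaagta
OsUBQ reverse: actcgatggtccattaaacc
The acyl-desaturase gene LOC_Os04g31070 had 847 RPKM in ERY COLD against 1747 in ERY CONTROL, and 969.6 RPKM in S.AND COLD against 1502 in S.AND CONTROL. Both genes had their COLD means below their CONTROL means in both cultivars. The triacylglycerol lipase gene LOC_Os06g42860 had 801 RPKM in ERY COLD against 1838 in ERY CONTROL, which is the lowest log2FC of the members in ERY (-1.20), and 1057 RPKM in S.AND COLD against 1261 in S.AND CONTROL, a log2FC of -0.26.

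Some undescribed genes were also lower in COLD in both cultivars. LOC_Os02g03960 had 1232 RPKM in ERY COLD against 1759.9 in ERY CONTROL, and 987 RPKM in S.AND COLD against 1639.5 in S.AND CONTROL. LOC_Os01g02190 had 1169 RPKM in ERY COLD against 1662 in ERY CONTROL, and 2251 RPKM in S.AND COLD against 3801 in S.AND CONTROL. LOC_Os12g13930 had 1058 RPKM in ERY COLD against 1269.8 in ERY CONTROL, and 2065 RPKM in S.AND COLD against 3065 in S.AND CONTROL.

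The cultivars differed in the sign of the cold difference for some members, RTS among them. RTS had 1650.2 RPKM in ERY COLD against 1853 in ERY CONTROL, a log2FC of -0.17. In S.AND it had 2263 RPKM in COLD against 1188 in CONTROL, a log2FC of 0.93. LOC_Os02g15860 was alike, with 1671 RPKM in ERY COLD against 2205 in ERY CONTROL, and 1399.7 RPKM in S.AND COLD against 988 in S.AND CONTROL. In both genes the 2 CONTROL means were further apart than the 2 COLD means. No member was past 1.5-fold in opposite directions in the cultivars, and the share of all genes that were was not worked out. No test of the difference between the cultivars could be made from group means.

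**Figure D4:**
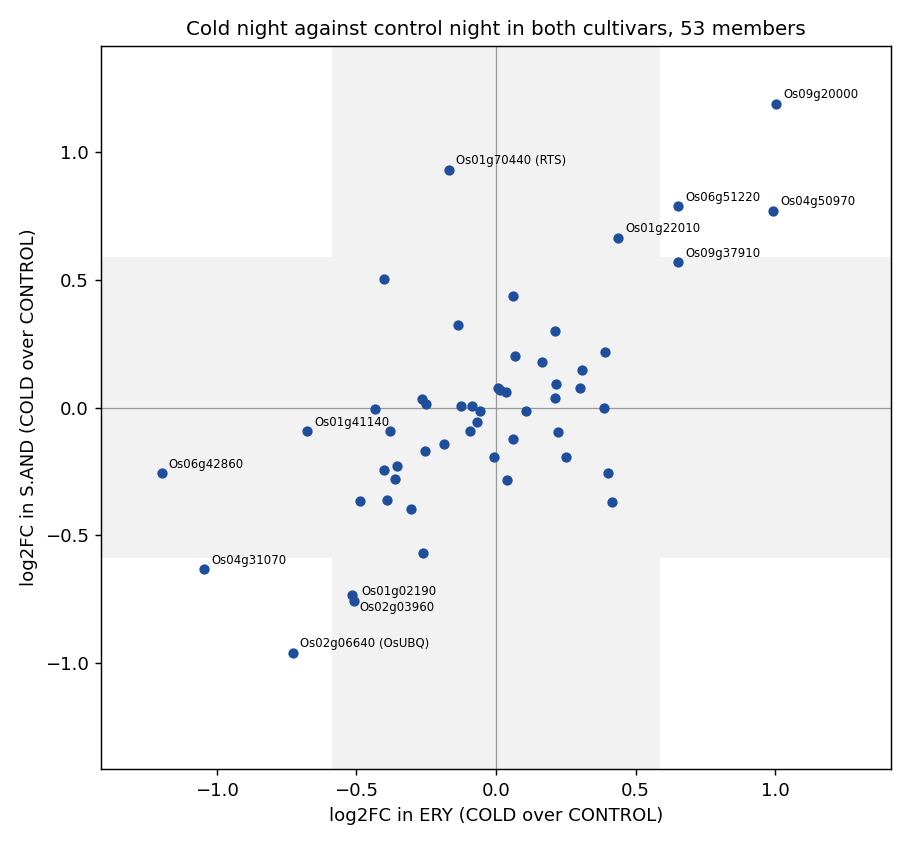
log2FC of COLD over CONTROL for the 53 members in ERY (x axis) and in S.AND (y axis), each point being a gene, with grey bands where a gene was under 1.5-fold in one cultivar. LOC_Os09g20000 lies at the upper right (1.003 and 1.19) and OsUBQ at the lower left (-0.73 and -0.96), and RTS lies high in S.AND alone (-0.17 and 0.93).

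Across the 53 genes, the log2FC in ERY and in S.AND had a Pearson's r of 0.65 and a Spearman's rho of 0.58. The points share no samples between the axes, but genes are not independent replicates and the values are means, so this is a description.

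The second comparison sets the cultivars side by side at each night temperature. Here the described tapetum genes separated: OsPKS1 and OsC4 were lower in ERY than in S.AND at both temperatures, OsRAFTIN1 was nearly alike, and RTS was lower in ERY in COLD (ratio 0.73) but higher in ERY in CONTROL (ratio 1.56). The median log2 ratio of ERY over S.AND was 0.09 in COLD and 0.07 in CONTROL, beside -0.00 and -0.04 over all genes with at least 1 RPKM in a compared group. In these bulk samples, fewer cells of a type and less RNA per cell cannot be told apart. The paper picked plants of each cultivar by a leaf measure to match a post-meiotic anther stage, and says that development might differ between cultivars. Whether a difference in stage remained between ERY and S.AND was not tested.

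In COLD, 1 member was at least 1.5-fold higher in ERY than in S.AND (background 14.2%) and 6 were at least 1.5-fold lower (background 11%). In CONTROL, 5 were at least 1.5-fold higher in ERY (background 14.6%) and 6 at least 1.5-fold lower (background 17.6%). With the ratios centred on the median gene, 8 were higher (background 15.5%) and 6 lower (background 16.7%) in CONTROL. At least 2-fold higher in ERY were 0 members in COLD (background 6.91%) and 2 in CONTROL (7.9%), and at least 2-fold lower were 3 in COLD (6.85%) and 6 in CONTROL (11.2%). At the limit of 25% higher or 20% lower, 11 members were higher in ERY than in S.AND in COLD (background 24.8%) and 10 lower (19.9%), while in CONTROL 14 were higher (23.3%) and 9 lower (27%). Past 1.5-fold either way were 13.2% of the members in COLD and 20.8% in CONTROL, beside 19.0% in COLD and 29.0% in CONTROL of the genes with an average of 200 to 800 RPKM. Among genes with an average of 50 to 200 RPKM it was 10.2% in COLD and 15.2% in CONTROL, under the members. In the class of at least 800 RPKM by average it was 22.1% in COLD and 31.4% in CONTROL. In total 6 members were at least 1.5-fold lower in ERY at both temperatures, 1 was at least 1.5-fold higher at both, and 42 were within 1.5-fold at both. The shares of all genes with these joint patterns were not worked out.

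OsPKS1 had 1566 RPKM in ERY COLD against 4117 in S.AND COLD, and 1316 RPKM in ERY CONTROL against 4705 in S.AND CONTROL. Its log2 ratio of ERY over S.AND was -1.39 in COLD and -1.84 in CONTROL, and its highest mean was 3.58 times its lowest, the widest of the members. OsC4 had 1739.5 RPKM in ERY COLD against 3411 in S.AND COLD, and 1305 RPKM in ERY CONTROL against 4405 in S.AND CONTROL. LOC_Os07g46210 had 1742 RPKM in ERY COLD against 3535 in S.AND COLD, and 1318 RPKM in ERY CONTROL against 4221 in S.AND CONTROL. In these 3 genes the COLD mean was above the CONTROL mean in ERY and below it in S.AND, so that the cultivars lay closer together in COLD.

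LOC_Os09g00999 had 1356 RPKM in ERY COLD against 3879 in S.AND COLD, and 1632 RPKM in ERY CONTROL against 3793 in S.AND CONTROL. The gene next to it by number, LOC_Os09g01000, was just outside the limit, with 839 RPKM in ERY COLD against 3968 in S.AND COLD, and 761 RPKM in ERY CONTROL against 2296 in S.AND CONTROL. Both neighbours were thus lower in ERY. LOC_Os12g13930 and LOC_Os01g02190, whose values are given above, had log2 ratios of ERY over S.AND of -0.96 and -0.95 in COLD and of -1.27 and -1.19 in CONTROL.

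The other way round, LOC_Os05g02520 had 3321 RPKM in ERY COLD against 1873 in S.AND COLD, and 3187 RPKM in ERY CONTROL against 1384 in S.AND CONTROL. It was the member at least 1.5-fold higher in ERY at both temperatures. LOC_Os02g15860 and LOC_Os01g41140 were higher in ERY mainly in CONTROL, with log2 ratios of 1.16 and 0.99 there and of 0.26 and 0.40 in COLD. LOC_Os08g02340 had 1351 RPKM in ERY COLD against 915 in S.AND COLD, and 1204 RPKM in ERY CONTROL against 808 in S.AND CONTROL. LOC_Os03g08050 had 1615 RPKM in ERY COLD against 1133 in S.AND COLD, and 1679 RPKM in ERY CONTROL against 1143 in S.AND CONTROL. Its neighbours LOC_Os03g08010 and LOC_Os03g08020 were likewise higher in ERY at both temperatures, by ratios of 1.19 to 1.35.

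**Figure D5:**
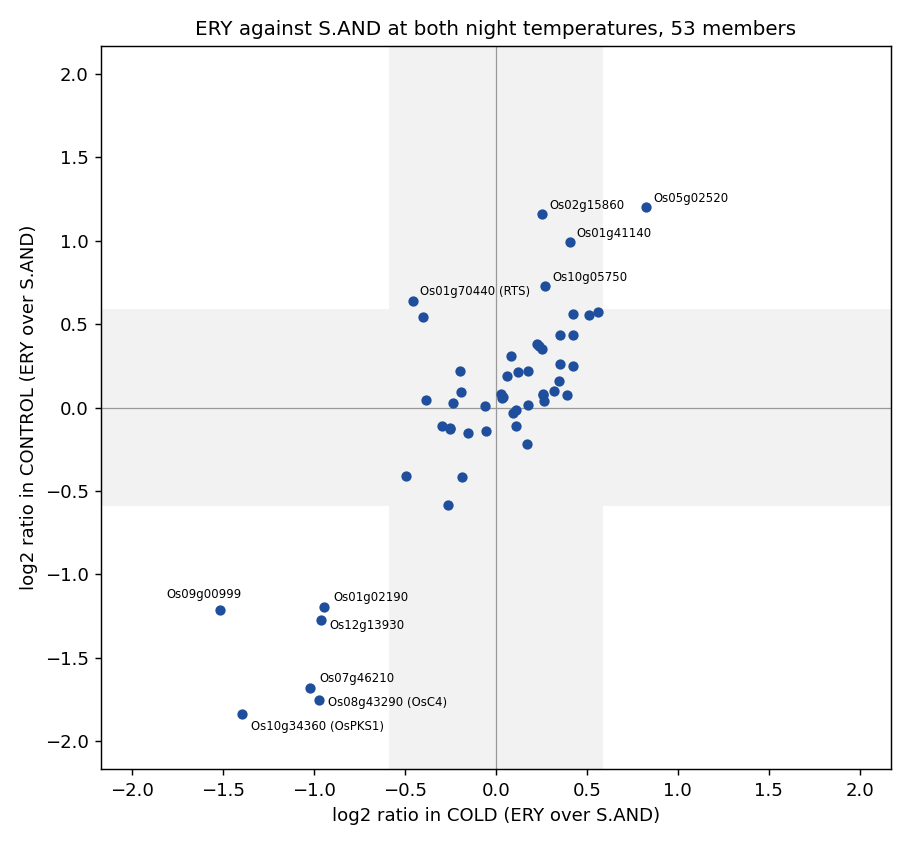
log2 ratio of ERY over S.AND for the 53 members in COLD (x axis) and in CONTROL (y axis), each point being a gene, with grey bands where a gene was under 1.5-fold at one temperature. A group of 6 genes that includes OsPKS1 and OsC4 lies at the lower left, and LOC_Os05g02520 lies at the upper right (0.83 and 1.20).

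The log2 ratio of ERY over S.AND in COLD and in CONTROL had a Pearson's r of 0.84 and a Spearman's rho of 0.71 over the 53 genes, which share no samples between the axes. For 28 of the 53, the cultivars differed more than the night temperatures did, taking the mean absolute log2 ratio of each pair of comparisons. The share of all genes for which this held was not worked out, so the near-even split describes the members alone.

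The 17 members not given so far were within 1.5-fold in all 4 comparisons. LOC_Os03g46770 was the most abundant of them, with 3193 RPKM in ERY COLD and 2434 in ERY CONTROL, and 2670.2 RPKM in S.AND COLD and 2298 in S.AND CONTROL, higher in COLD in both cultivars. LOC_Os02g10310 had 1365 RPKM in ERY COLD and 1754 in ERY CONTROL, and 1922 RPKM in S.AND COLD and 2335 in S.AND CONTROL, the widest range of the 17 (1.71 times). LOC_Os11g47760 had 843 RPKM in ERY COLD and 1181 in ERY CONTROL, and 1004 RPKM in S.AND COLD and 1293 in S.AND CONTROL. Both of these were lower in COLD and lower in ERY. LOC_Os02g02890 and LOC_Os01g05650 were lower in COLD in both cultivars, by ratios of 0.76 (ERY) and 0.78 (S.AND) for the first gene and of 0.81 (ERY) and 0.76 (S.AND) for the second. LOC_Os09g31080 was higher in COLD, with 1786 RPKM in ERY COLD and 1543 in ERY CONTROL, and 1640.0 RPKM in S.AND COLD and 1332 in S.AND CONTROL, and so was LOC_Os03g59380, with ratios of 1.24 in ERY and 1.11 in S.AND. LOC_Os03g27310 was the most level of the 17, with 916 RPKM in ERY COLD, 977 in ERY CONTROL, 1019.9 in S.AND COLD and 1088 in S.AND CONTROL.

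Of the 45 anther development genes of the study's list, 5 had at least 800 RPKM in every group, counting OsC6, and 10 did in at least one. The others were higher in S.AND. OsACOS12 (LOC_Os04g24530), an acyl-CoA synthetase, had 749 RPKM in ERY COLD against 2297 in S.AND COLD, and 549 RPKM in ERY CONTROL against 4024 in S.AND CONTROL. CYP704B2 (LOC_Os03g07250), a fatty acid hydroxylase, had 600.0 RPKM in ERY COLD against 1951 in S.AND COLD, and 657 RPKM in ERY CONTROL against 3471 in S.AND CONTROL. In S.AND CONTROL they ranked 11 and 15 of all genes, but both missed the limit in ERY. Over the list, 2 genes were at least 1.5-fold higher and 17 at least 1.5-fold lower in ERY than in S.AND in COLD, out of 44 with at least 1 RPKM, where the background was 14.2% higher and 11% lower. In CONTROL 6 were higher and 19 lower, out of 45, where the background was 14.6% higher and 17.6% lower. For COLD over CONTROL, 6 of 41 were higher and 3 lower in ERY (background 16.4% and 14.5%), and 6 of 45 were higher and 16 lower in S.AND (background 12.8% and 18.7%). The median log2 ratio of the list was -0.33 in COLD and -0.25 in CONTROL for ERY over S.AND, and 0.09 in ERY and -0.21 in S.AND for COLD over CONTROL. OsPKS1 and OsC4 were among the list's genes that were lower in ERY at both temperatures, while RTS and OsRAFTIN1 were not.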

How the data were processed

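Anther RNA of 12 samples in 4 groups of 3 was sequenced from poly(A)-selected libraries. The authors used CLC Genomics Workbench 4.7.1 to map the reads to rice gene models of the MSU 7.0 release, and the deposited table holds RPKM per gene as the authors' mean of each group, with columns that sum to 1000000. It also holds the authors' fold changes and corrected p-values of COLD against CONTROL, which were not used. The paper states only a minimum number of reads for each sample. With no values per sample, neither replicate spread nor a new test could be had.

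Members had at least 800 RPKM in all 4 columns. Ratios of group means were taken with no pseudocount, over genes with at least 1 RPKM in a compared group, and 1.5-fold was the limit for counts. A gene was called level where its highest mean was under 1.5 times its lowest. Named were the 10 members with the highest average, the 5 highest and 5 lowest by log2FC in each cultivar and by mean log2 ratio between cultivars, the 5 most level, the 3 genes on each side of the limit, and every member the study describes. The remaining members were named after their values were seen. Gene descriptions and the OsUBQ primers came from the study's tables. Members and lists were chosen with earlier results of these data known. Grouping the members by protein class was possible for the 8 described members alone. The alternatives were other limits, membership by average, a pseudocount of 1 RPKM, filters, and centring on the median gene. Counting was tested on simulated data. Python 3.11.15, NumPy 2.4.6, pandas 2.3.3, SciPy 1.17.1 and matplotlib 3.10.9 were used.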

Additional observations from a re-analysis of the deposited data

How the results depend on the processing

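The number of members depends on the limit. It was 53 at 800 RPKM in every group, 155 at 400 RPKM, 12 at 1600 RPKM and 84 with an average of at least 800 RPKM. Membership by average gave shares of 16.0% in ERY COLD and 17.3% in ERY CONTROL, and of 16.8% in S.AND COLD and 18.0055% in S.AND CONTROL. Leaving LOC_Os01g41140 out of both the members and the column sum, an alternative chosen after seeing the data, gave 12.02% in ERY COLD and 12.4% in ERY CONTROL. For COLD over CONTROL, 9 members were higher by at least 25% (27.6% of all genes) and 14 lower by at least 20% (24.4%) in ERY, and 1 higher and 2 lower by 2-fold. In S.AND 9 were higher by at least 25% (24.8% of all genes) and 9 lower by at least 20% (29.4%), and 1 higher and 0 lower by 2-fold. For ERY over S.AND in COLD, 11 were higher by at least 25% (24.8% of all genes) and 10 lower by at least 20% (19.9%), and 0 higher and 3 lower by 2-fold. In CONTROL 14 were higher by at least 25% (23.3% of all genes) and 9 lower by at least 20% (27%). At 2-fold, 2 were higher (7.9% of all genes) and 6 lower (11.2%). After centring on the median gene, 8 were higher by 1.5-fold (15.5% of all genes) and 6 lower (16.7%). Centring moved all ratios by 0.04 or less on the log2 scale. Of all genes, 30.9% in ERY and 31.5% in S.AND were past 1.5-fold either way between COLD and CONTROL. A filter at 10 RPKM gave 22.9% for ERY and 23.9% for S.AND. No filter beyond both means above 0 gave 40.8% for ERY and 41.3% for S.AND. Between the cultivars it was 25.2% in COLD and 32.2% in CONTROL, then 15.4% and 21.2% at 10 RPKM, and 37.0% and 42.8% with no filter. Of 84 alternative values, 52 stayed within 10% for shares, 0.1 for median log2 ratios or 1.5 times for counts, and 32 moved further. The members' median log2FC in ERY lay so near no difference that its sign was not stable. It went from -0.06 to 0.01 with membership by average. Without neighbouring members, an alternative chosen after seeing the data, it was 0.02. The median in S.AND stayed negative under every alternative, but it too lay near no difference, between -0.036 and -0.009. With no spread between samples, its constant sign shows no fall. No paired analysis was possible because the table holds group means whose columns carry no replicate numbers, and leaving out a replicate was not run for the same reason.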

Other observations

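A further 79 genes had at least 800 RPKM in 1 to 3 of the 4 groups, and 21 of them are described in the study's tables. They held 5.47% of all RPKM in ERY COLD and 5.50% in ERY CONTROL, and 6.70% in S.AND COLD and 7.55% in S.AND CONTROL. Of these genes, 15 reached the limit in both S.AND groups alone, 14 in both ERY groups alone, 5 in both COLD groups alone and 8 in both CONTROL groups alone. These values are a description, since the limit itself chose the genes.

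Among the genes that reached the limit in both COLD groups alone was LOC_Os03g16670, a hydrolase of the haloacid dehalogenase-like family, with 1119 RPKM in ERY COLD against 187 in ERY CONTROL, and 1264 RPKM in S.AND COLD against 354 in S.AND CONTROL. LOC_Os06g48200, of glycosyl hydrolase family 16, a family of cell wall enzymes, had 875 RPKM in ERY COLD against 206 in ERY CONTROL, and 1331 RPKM in S.AND COLD against 390 in S.AND CONTROL. Both were far higher in COLD in each cultivar. On the CONTROL side, LOC_Os01g46270, described as a wax synthase, had 493 RPKM in ERY COLD against 1173 in ERY CONTROL, and 452 RPKM in S.AND COLD against 1165 in S.AND CONTROL. LOC_Os07g49400 (OsAPx2), an ascorbate peroxidase that removes hydrogen peroxide, had 527 RPKM in ERY COLD against 1075 in ERY CONTROL, and 616 RPKM in S.AND COLD against 1502 in S.AND CONTROL. That both were lower in COLD in each cultivar likewise follows from the limit.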
